A study of Mus musculus with 9 samples.

Results

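Neurotrophins are secreted growth factors that keep neurons alive and shape their axons and synapses, and they act through 2 kinds of receptor. The set described here comprised 6 genes: the ligands Bdnf and Ntf3, the receptor tyrosine kinases Ntrk2 (TrkB, the receptor of BDNF) and Ntrk3 (TrkC, the receptor of neurotrophin-3), the shared receptor Ngfr (p75) and Sort1 (sortilin, a sorting protein that is also a co-receptor of p75 for proneurotrophins). Members were taken as all probe sets whose annotation named one of these genes alone, which gave 24 of 45037 probe sets and 5 of 18193 genes. No probe set in the annotation used here named Ntf3 alone, so Ntf3 was not analysed here. The levels come from laser-captured motor neurons of wild-type C57BL/6J male mice at postnatal day 7. The lumbar pool (L5) was cut from the fifth lumbar level of the cord, the dorsolateral nucleus (DL) from the sixth, and the oculomotor nucleus (OMN) from the midbrain. Each pool had 3 arrays (Affymetrix Mouse Genome 430 2.0), and the protocol states that every animal gave all 3 pools, with about 200 neurons per pool. The animals, 3 in number, were untreated. The question, by the series title, was how gene expression compares between pools that differ in vulnerability to amyotrophic lateral sclerosis (ALS), a disease in which limb motor neurons die while oculomotor and sphincter motor neurons are relatively spared.

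BDNF signals mainly through TrkB, and neurotrophin-3 through TrkC, both by way of Ras-MAPK, PI3K-Akt and phospholipase C. The p75 receptor binds all mature neurotrophins and, together with sortilin, their uncleaved precursors, and through it cells can be driven toward survival or death depending on the partners present. In rodents motor neurons express p75 strongly before and around birth and again after axon injury, and BDNF supports motor neurons cut off from their muscle.

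Bdnf and Ngfr were higher in DL than in either of the other pools, and no call was made for Ntrk2, Ntrk3 or Sort1 in any comparison. Both promoters are shown because Bdnf and Ngfr were the members with a call. The RefSeq promoter table (GRCm38.p6, 250 bases before to 50 after a start) held 7 windows for Bdnf, 2 for Ntf3, and 1 each for Ngfr and Ntrk2. Windows were searched on both strands for the cAMP response element core CGTCA and the GC box GGGCGG, neither of which contains the other. CGTCA occurred in 20.8% of all 32851 windows in the table and the GC box in 35.7%. Of the Bdnf windows, 1 held CGTCA and 2 held a GC box. Each window of Ngfr, Ntf3 and Ntrk2 held a GC box, and none of them held CGTCA. The Bdnf window with CGTCA is given with that match in capitals, and the Ngfr window with its 4 GC boxes, on either strand, in capitals. The annotation used here does not say which Bdnf transcripts the probe sets read, so no start can be tied to the values.
Bdnf, chr2:109692186-109692485, plus strand: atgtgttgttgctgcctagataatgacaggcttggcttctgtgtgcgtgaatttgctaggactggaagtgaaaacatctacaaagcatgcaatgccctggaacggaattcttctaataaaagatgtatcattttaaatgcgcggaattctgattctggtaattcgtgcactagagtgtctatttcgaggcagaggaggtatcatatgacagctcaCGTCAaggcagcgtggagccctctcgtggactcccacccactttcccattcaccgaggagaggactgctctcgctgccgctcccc
Ngfr, chr11:95587649-95587948, minus strand: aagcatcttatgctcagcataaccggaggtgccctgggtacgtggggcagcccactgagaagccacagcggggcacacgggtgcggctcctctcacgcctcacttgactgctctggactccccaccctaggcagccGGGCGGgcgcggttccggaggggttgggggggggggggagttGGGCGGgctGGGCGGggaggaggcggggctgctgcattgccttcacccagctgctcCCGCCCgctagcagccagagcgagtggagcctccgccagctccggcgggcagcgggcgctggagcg

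Values are intensities on a linear scale, which had a common trimmed mean on every array as deposited. The noise level was set at 18.3, the brightest reading on any array among 27 bacterial control probe sets. DL arrays lay below all others in median intensity, at 32.0 to 34.3 in L5, 26.4 to 29.7 in DL and 33.6 to 35.5 in OMN, and in the share of genes above noise, at 69.7% to 71.5%, 67.0% to 68.1% and 69.4% to 70.2%. With arrays centred on their medians, the genes called between L5 and DL were 169 higher and 406 lower in L5, in place of 232 and 232, and those between DL and OMN were 384 higher and 195 lower in DL, in place of 249 and 301. The calls of Bdnf and Ngfr in both comparisons were the same under that centring. DL arrays varied more than the others, with a median SD of log2 values of 0.204 in L5, 0.295 in DL and 0.171 in OMN over the 7123 genes with a mean above 200. Gapdh control probe sets at both ends of the transcript gave a 3' over 5' ratio, a measure of RNA integrity, of 2.45 to 2.53 in L5, 2.44 to 3.75 in DL and 2.33 to 2.67 in OMN. Of the motor neuron genes, Slc18a3 (the vesicular acetylcholine transporter) averaged 2828 ± 666 in L5, 1662 ± 891 in DL and 2478 ± 418 in OMN (SD, n = 3 each), and Prph (peripherin) 10257 ± 132, 8626 ± 951 and 4844 ± 301. The probe set used for Chat, the enzyme that makes acetylcholine, lay at or under noise on 5 of 9 arrays and reached 24.5 at most.

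Genes were tested with limma on log2(intensity + 16), each gene by its brightest probe set. All arrays entered 1 fit with the replicate number as a block, and a gene was called at a Benjamini-Hochberg adjusted p under 0.05 over all 18193 genes. Differences in log2 are on this scale and understate the change of dim genes. In bulk samples of captured cells, fewer cells of a type and less RNA per cell cannot be told apart.

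Bdnf, the ligand of TrkB, had intensities of 101, 42.5 and 44.0 on the L5 arrays, 449, 333 and 246 on the DL arrays and 56.5, 40.9 and 46.0 on the OMN arrays. Every DL array lay above every array of the other pools, and the L5 and OMN arrays overlapped. The mean was 62.5 ± 33.4 in L5, 343 ± 102 in DL and 47.8 ± 7.95 in OMN (SD, n = 3 each), so that L5 stood at 0.182 of DL and DL at 7.17 times OMN. Bdnf was lower in L5 relative to DL, with a log2 difference of -2.23 ± 0.23 (SE, limma adjusted p = 0.00672) and higher in DL than in OMN by 2.46 ± 0.23 (adjusted p = 0.00273). Both signs were shared by 3 of 3 pairs of equal replicate number, which follows from the lack of overlap and adds nothing to it. Between L5 and OMN the log2 difference was 0.23 ± 0.23 (adjusted p = 0.690), with an unadjusted 95% interval of -0.30 to 0.76. The level in those pools was low but above the noise of 18.3 on every array.

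The second Bdnf probe set was dimmer and ran the same way. It had 18.4, 15.8 and 43.6 in L5, 101, 116 and 60.5 in DL and 31.7, 36.6 and 17.1 in OMN. Its DL arrays again lay above all others, while 1 L5 and 1 OMN array were under noise. Tested among all 45037 probe sets it made no call, with a log2 difference of -1.39 ± 0.35 for L5 minus DL (adjusted p = 0.113) and 1.28 ± 0.35 for DL minus OMN (adjusted p = 0.142).

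Ngfr, the p75 receptor, had 113, 128 and 249 on the L5 arrays, 843, 947 and 1364 on the DL arrays and 252, 266 and 264 on the OMN arrays. The DL arrays were the highest, the OMN arrays lay close together, and all L5 arrays were below all OMN arrays, 1 of them narrowly. Means were 163 ± 74.5 in L5, 1052 ± 276 in DL and 261 ± 7.59 in OMN, a ratio of 0.155 for L5 over DL and 4.04 for DL over OMN. Ngfr was lower in L5 than DL (log2 difference -2.62 ± 0.24, adjusted p = 0.00493) and higher in DL than in OMN (1.92 ± 0.24, adjusted p = 0.00820). The sign was the same in 3 of 3 pairs, which again follows from the lack of overlap. L5 minus OMN gave -0.70 ± 0.24 (adjusted p = 0.212), which was no call, so the order of these neighbouring levels is not established.

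Among probe sets, 0.666% were called lower in L5 than DL and 0.75% higher in DL than OMN. A second Ngfr probe set, built on another sequence, gave 97.3, 85.4 and 96.5 in L5, 533, 538 and 351 in DL and 134, 135 and 214 in OMN. It repeated the order with DL highest and L5 below every OMN array, and it was called among all probe sets for L5 minus DL (-2.14 ± 0.27, adjusted p = 0.0203) and for DL minus OMN (1.47 ± 0.27, adjusted p = 0.0475). The third, on the same sequence as the brightest, was dim, with 34.4, 45.4 and 21.2 in L5, 36.1, 101 and 111 in DL and 43.9, 12.7 and 40.3 in OMN. Its pools overlapped and it made no call.

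**Figure D1:**
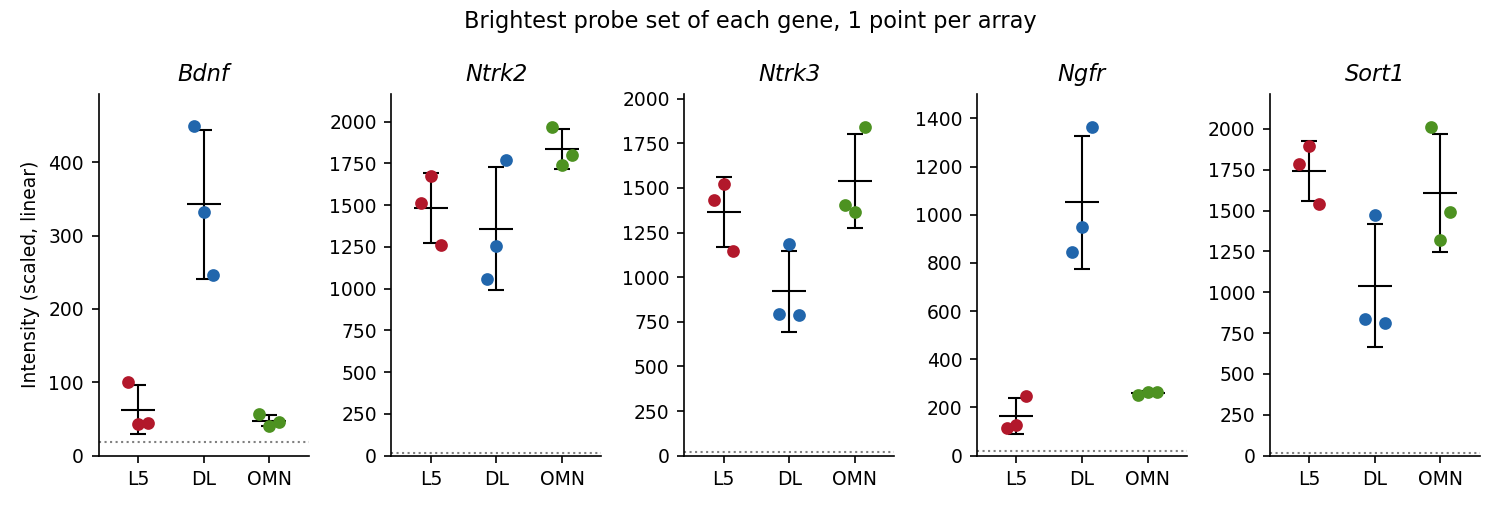
Intensity of the brightest probe set of each gene (linear axis from 0) on the 3 arrays of L5, DL and OMN; points are arrays, bars the mean ± SD, and the dotted line the noise level of 18.3. The DL points of Bdnf (246 to 449) and Ngfr (843 to 1364) lie above all others, whereas DL overlaps both other pools for Ntrk2 and is lowest on average for Ntrk3 and Sort1.

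**Figure D2:**
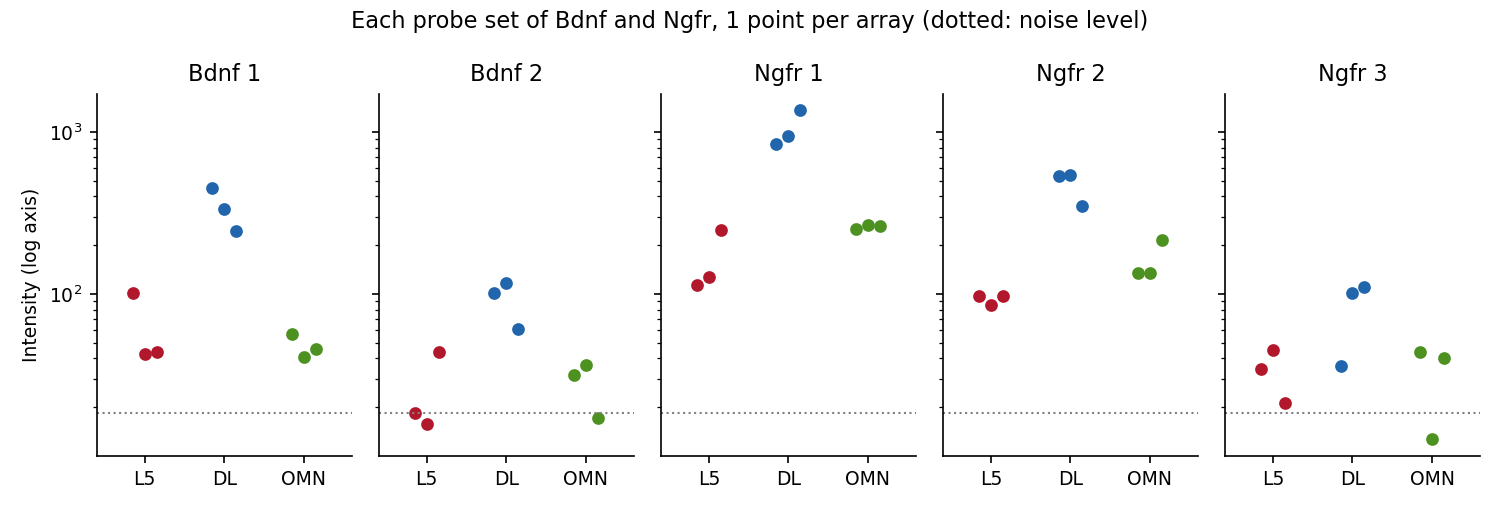
Intensity on a log axis of the 2 probe sets of Bdnf and the 3 of Ngfr, brightest first, 1 point per array in L5, DL and OMN, with the noise level dotted. DL lies above both other pools in each panel except the dimmest Ngfr probe set, where the pools overlap.

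Of the 5 measured members, 2 were called lower in L5 than in DL, where 1.28% of all genes were called in that direction (2.55% in either). The same 2 were called higher in DL than in OMN, against 1.37% of genes in that direction (3.02% in either). In each of these comparisons 4 of the 5 (Bdnf, Ngfr, Ntrk3 and Sort1) had an unadjusted limma p under 0.05. Over all 18193 genes 3436 did for L5 minus DL and 2911 for DL minus OMN. By their brightest probe sets, Ntrk3 and Sort1 ran opposite to Bdnf and Ngfr. The probe sets of Sort1 disagreed, and its second was lower in L5 than in DL (log2 difference -0.56). These comparisons share the DL arrays, so their values are not independent. Pools that did not overlap at all were found for 3 of the 5 genes between L5 and DL (23.5% of all genes), 2 between L5 and OMN (27.4%) and 3 between DL and OMN (21.1%). Both Bdnf and Ngfr were among the 86 of 18193 (0.473%) called above both other pools in DL. Between L5 and OMN limma called 0 of the 5 (2.17% of all genes were called). There 1 of the 5, Ngfr, had an unadjusted p under 0.05, as did 2901 of 18193 genes. For L5 against the mean of DL and OMN, Ngfr was called lower (-1.66 ± 0.20, adjusted p = 0.0133), against 1.1% of all genes in that direction (2.13% in either). This call was lost on leaving out any 1 of the 3 L5 arrays (adjusted p = 0.109, 0.114 and 0.0552) or OMN array 2 (adjusted p = 0.0517). Bdnf, at -1.001 ± 0.20 (adjusted p = 0.0530), was not called in that contrast.

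The higher Gapdh ratios lay on DL arrays 1 and 3, at 3.27 and 3.75. On DL array 2, whose ratio of 2.44 lay within the range of the other pools, Bdnf was at 333 and Ngfr at 947, above every L5 and OMN array. With DL represented by that array alone the log2 differences were as large, -2.48 and -2.61 for L5 minus DL, but no call remained (limma adjusted p = 0.0866 for Bdnf and 0.0897 for Ngfr). For DL minus OMN they were 2.71 and 1.91 (adjusted p = 0.0509 and 0.109). When that ratio entered the model, Ngfr missed the threshold for DL minus OMN (1.94, adjusted p = 0.0549). The Bdnf difference between L5 and DL fell outside the threshold without L5 array 2 (-2.10, adjusted p = 0.0512), and in a fit limited to those pools (adjusted p = 0.0561), as did Ngfr for DL minus OMN in a fit limited to DL and OMN (adjusted p = 0.0570).

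Ntrk2, the TrkB receptor gene, was among the brighter members, with 1511, 1677 and 1262 in L5, 1055, 1254 and 1769 in DL and 1968, 1740 and 1799 in OMN for its brightest probe set. OMN arrays lay above all L5 arrays, by little, and overlapped with DL. Means were 1483 ± 209, 1359 ± 368 and 1836 ± 119 in L5, DL and OMN, and limma made no call (adjusted p = 0.811 for L5 minus DL, 0.608 for L5 minus OMN and 0.440 for DL minus OMN). The 95% intervals of the log2 differences, unadjusted, ran from -0.44 to 0.73, from -0.90 to 0.27 and from -1.04 to 0.12, and differences of either sign lie within each of them.

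Its 8 probe sets did not all behave alike. The dimmest lay under noise on all arrays, and the other 7 were above noise on all arrays. Between L5 and OMN all of those 7 were lower in L5, and in 5 the arrays did not overlap, against 11.8% of all probe sets not overlapping in that direction. Probe sets of a gene share its RNA and are not independent. Over the 8 probe sets L5 minus OMN ran from -1.28 to 0.08 and L5 minus DL from -0.76 to 0.36, with 0 calls by limma among 45037 probe sets (3 and 0 at an unadjusted p under 0.05). The largest differences between L5 and OMN were in the sixth and seventh probe sets by brightness, both above noise on all arrays. The seventh had 66.3, 89.1 and 109 in L5, 137, 225 and 64.9 in DL and 239, 201 and 263 in OMN, a log2 difference of -1.28 ± 0.39 for L5 minus OMN (adjusted p = 0.217 over all probe sets). The sixth had 218, 258 and 273 in L5, 184, 377 and 407 in DL and 642, 519 and 659 in OMN (L5 minus OMN -1.23 ± 0.27, adjusted p = 0.107). In both, OMN exceeded every L5 array, and neither passed the threshold. Ntrk2 also makes a truncated receptor without the kinase, abundant in astrocytes, and the annotation used here does not say which transcripts each probe set reads.

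Ntrk3, the TrkC receptor gene, had 1433, 1522 and 1145 in L5, 794, 1183 and 787 in DL and 1407, 1366 and 1842 in OMN for its brightest probe set. DL was lowest, with all of its arrays under all OMN arrays and 1 array within the L5 range. Means were 1366 ± 197 in L5, 922 ± 227 in DL and 1538 ± 264 in OMN. The log2 difference was 0.58 ± 0.25 for L5 minus DL (adjusted p = 0.264), -0.74 ± 0.25 for DL minus OMN (adjusted p = 0.191) and -0.17 ± 0.25 for L5 minus OMN (adjusted p = 0.801), and none of them was called.

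The other Ntrk3 probe sets ran the same way without a call. Of the 8, 7 had positive values for L5 minus DL and 7 negative ones for DL minus OMN, where 5 did not overlap, against 12.2% of all probe sets in that direction. The exception in both was the dimmest, which averaged 14.9 in L5, 20.9 in DL and 13.4 in OMN, about the noise level. The nearest to a call was the sixth, with 280, 301 and 140 in L5, 195, 30.2 and 51.6 in DL and 453, 277 and 329 in OMN (DL minus OMN -2.05 ± 0.42, adjusted p = 0.0641). The fourth, whose identifier marks probes that can match more than 1 transcript, had 430, 314 and 132 in L5, 54.1, 38.4 and 249 in DL and 725, 338 and 356 in OMN. Its replicates differed by several fold in DL, and DL minus OMN was -2.20 ± 0.66 (adjusted p = 0.175).

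Sort1, which encodes sortilin, had 1786, 1897 and 1541 in L5, 837, 1474 and 814 in DL and 2012, 1323 and 1490 in OMN for its brightest probe set. All L5 arrays lay above the DL arrays, while OMN spanned the L5 range. Means were 1741 ± 182, 1041 ± 375 and 1608 ± 360 in L5, DL and OMN, with log2 differences of 0.78 ± 0.28 for L5 minus DL (adjusted p = 0.189), -0.65 ± 0.28 for DL minus OMN (adjusted p = 0.311) and 0.13 ± 0.28 for L5 minus OMN (adjusted p = 0.870).

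The 3 probe sets of Sort1, all built on 1 sequence record, disagreed. The identifier of the brightest marks probes that can match more than 1 transcript. The second had 661, 618 and 592 in L5, 1304, 657 and 919 in DL and 981, 885 and 1214 in OMN, with L5 lowest on average (L5 minus DL -0.56 ± 0.24, adjusted p = 0.316; L5 minus OMN -0.69 ± 0.24, adjusted p = 0.276). The third had 547, 595 and 597 in L5, 430, 284 and 496 in DL and 502, 540 and 441 in OMN, with L5 highest, all of its arrays above those of both other pools. No direction for the gene can be read from these data.

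**Figure D3:**
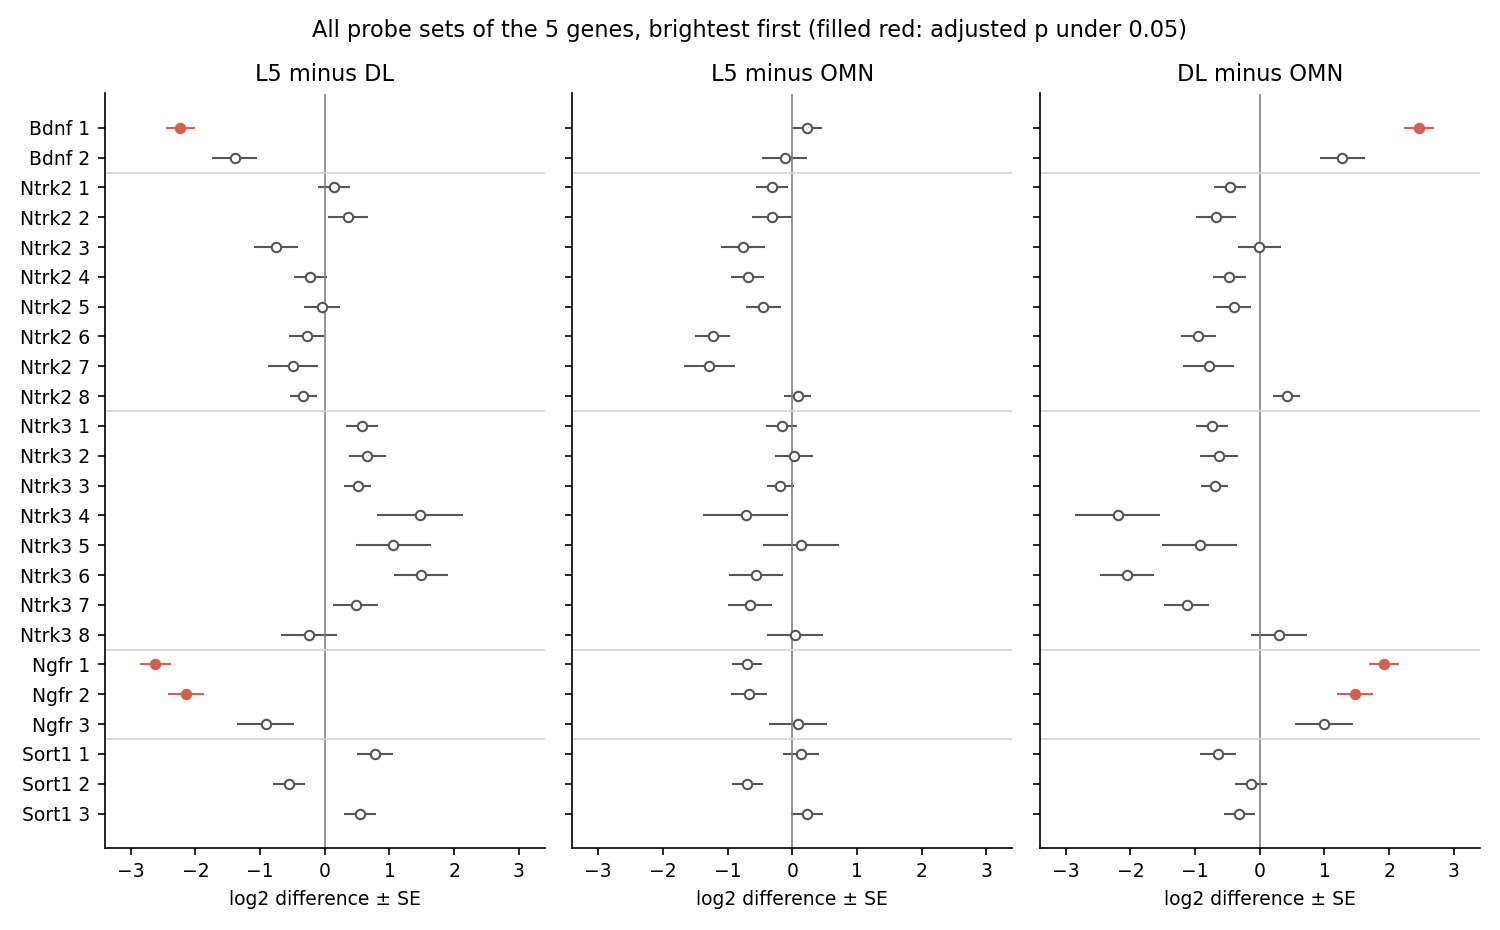
Log2 difference ± SE of all 24 probe sets in the 3 pairwise comparisons, numbered from the brightest within a gene; filled red points have an adjusted p under 0.05 over 45037 probe sets. Calls stand at 1 of 2 Bdnf and 2 of 3 Ngfr probe sets against DL, Ntrk3 leans to lower values in DL, Ntrk2 to higher values in OMN, and the Sort1 probe sets fall on both sides of 0.

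Other genes of the pathway were counted in 7 lists, chosen with results of these data known. Across all genes the median log2 difference was 0.06 for L5 minus DL, 0.01 for L5 minus OMN and -0.04 for DL minus OMN. In the same order, limma gave 3436, 2901 and 2911 of the 18193 genes an unadjusted p under 0.05. Among 6 measured ligands and receptors outside the set, 1 was called, for L5 minus DL. This was Sorcs1, a receptor of the sortilin family, at 146 ± 36.0 in L5 and 38.3 ± 30.5 in DL, with 108 ± 17.0 in OMN (L5 minus DL 1.75 ± 0.33, adjusted p = 0.0443). The list's medians were 0.20 for L5 minus DL, 0.53 for L5 minus OMN and -0.02 for DL minus OMN. Ntf5, the mouse gene for neurotrophin-4, was near noise, at 17.7 ± 10.0 in L5, 17.7 ± 5.44 in DL and 26.9 ± 13.4 in OMN.

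Of 12 measured enzymes that can process proneurotrophins, L5 minus DL had 1 call in each direction, and L5 minus OMN had 1 upward call. Mmp9, a matrix metalloproteinase that can cut proBDNF, was the one that was higher in both, at 640 ± 119 in L5, 68.0 ± 59.7 in DL and 94.2 ± 10.1 in OMN (3.20 ± 0.38 in log2 against DL, adjusted p = 0.0111, and 2.56 ± 0.38 against OMN, adjusted p = 0.0225). Pcsk1, a prohormone convertase, was lower in L5 relative to DL, at 44.7 ± 4.81 against 220 ± 81.1 (-1.91 ± 0.34, adjusted p = 0.0362), and stood at 158 ± 72.5 in OMN. DL minus OMN had 0 calls by limma in this list, with 1 at an unadjusted p under 0.05. The medians were -0.08, -0.09 and 0.10 for L5 minus DL, L5 minus OMN and DL minus OMN.

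Among 15 Trk adaptors and scaffolds, Sh2b2 was higher in L5 than in DL, at 56.2 ± 11.9 against 13.2 ± 8.41 (log2 difference 1.34 ± 0.26, adjusted p = 0.0493). Gab1, a docking protein, was higher in DL than in OMN, at 332 ± 100.3 against 110 ± 16.5 (1.43 ± 0.28, adjusted p = 0.0429). The list's medians were -0.08, -0.08 and -0.07 in the same order of comparisons. Among 18 measured effectors of Ras-MAPK, PI3K-Akt and phospholipase C, 1 was called, Rps6ka5, a nuclear kinase below MAPK, which was higher in DL than in OMN, at 180 ± 32.4 against 65.5 ± 16.2 (1.27 ± 0.24, adjusted p = 0.0368). The medians were -0.04, -0.18 and -0.19.

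Of 19 measured p75 co-receptors, adaptors and cleavage enzymes, Tnfrsf19 (TROY, a receptor related to p75) was the only pairwise call, lower in DL than in OMN, at 70.5 ± 33.4 against 209 ± 54.4 (log2 difference -1.42 ± 0.26, adjusted p = 0.0345). Its direction was the opposite of Ngfr in that comparison. Bex1, an adaptor of p75, was lower in L5 than the mean of DL and OMN, at 1890 ± 285 in L5, 3696 ± 429 in DL and 3502 ± 104 in OMN (-0.93 ± 0.18, adjusted p = 0.0489). The medians of the list were 0.05, -0.09 and 0.03. Among 12 sortilin partners, Grn, the progranulin gene whose product sortilin takes up, fell in L5 relative to DL, at 2356 ± 293 against 5086 ± 1078 (-1.09 ± 0.21, adjusted p = 0.0444), with medians of -0.04, -0.09 and 0.17. The identifier of the Grn probe set also marks probes that can match more than 1 transcript. Of 14 transcripts known to respond to neurotrophins or activity, limma called 0 in any comparison, with 1, 2 and 4 at an unadjusted p under 0.05 and medians of 0.25, -0.07 and -0.12.

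By Pearson correlation of log2 values over the 9 arrays, among 8879 genes with a mean intensity of 100 or more and no provisional name, the genes most like Bdnf were Cadps2 (r = 0.979), Tafa2 (0.978) and Lix1 (0.969). Cadps2 was at 381 ± 70.9 in L5, 1394 ± 217 in DL and 412 ± 73.7 in OMN. The genes most like Ngfr were Leprot (0.981), Cyp20a1 (0.974) and Ttc33 (0.974). Leprot was at 424 ± 57.3 in L5, 882 ± 16.5 in DL and 484 ± 5.74 in OMN, by a probe set whose identifier marks probes that can match more than 1 transcript. Bdnf and Ngfr correlated at 0.809, and Ngfr ranked 239 of 8879 for likeness to Bdnf. The arrays fall into 3 pools and DL stands apart for both genes, so these values mostly reflect the difference between DL and the rest and are given as a description.

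Some markers of other cells were higher in DL and others lower. The list medians for L5 minus DL were -0.60 for oligodendrocytes, -0.70 for inhibitory interneurons and -0.11 for Schwann cells and sensory neurons. They were 0.25 for astrocytes, 0.24 for oligodendrocyte precursors, 0.46 for microglia, 0.01 for excitatory interneurons and 0.31 for vascular and meningeal cells. For DL minus OMN the medians were 1.00 for oligodendrocytes, 1.39 for inhibitory interneurons and 0.41 for Schwann cells and sensory neurons. They were 0.34 for excitatory interneurons, 0.20 for oligodendrocyte precursors, -0.07 for vascular and meningeal cells, -0.24 for astrocytes and -0.37 for microglia. Of 14 oligodendrocyte markers, 4 (Mal, Ugt8a, Cldn11 and Ermn) were called lower in L5 relative to DL, and the same 4 higher in DL than in OMN. An unadjusted limma p under 0.05 was found for 8 of the 14 for L5 minus DL and 12 for DL minus OMN. The summed intensity of that list was 18332 to 19356 in L5, 25471 to 27893 in DL and 15034 to 16690 in OMN. Of 14 astrocyte markers, Gfap was higher in DL than in both other pools, at 325 ± 82.4 in L5, 1550 ± 683 in DL and 18.0 ± 5.34 in OMN, and S100b was higher in L5 than in DL, at 3009 ± 364 against 1365 ± 228, while the sums were 26229 to 29133, 21988 to 25533 and 24246 to 25815. Of 6 inhibitory interneuron markers, 2 (Gad2 and Gad1) fell in L5 relative to DL, and 3 (Slc6a5, Sst and Slc32a1) were higher in DL than in OMN, with sums of 4120 to 6561 in L5, 9100 to 9802 in DL and 2382 to 3005 in OMN. Of these 6, 3 had an unadjusted limma p under 0.05 for L5 minus DL and 4 for DL minus OMN. Astrocyte markers numbered 3 in each.

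Schwann cells and sensory neurons can express Ngfr. Of 12 listed markers of these cells 6 were measured here. Among them, Prrxl1, a sensory neuron factor, was higher in DL, at 52.3 ± 33.4 in L5, 376 ± 38.8 in DL and 5.83 ± 7.16 in OMN. Pmp22, which encodes a protein of peripheral myelin, was higher in L5 than in DL, at 2060 ± 176 against 875 ± 183, and stood at 135 ± 37.1 in OMN. Egr2, a factor of myelinating Schwann cells, and Scn10a, a sensory neuron sodium channel, lay at or under noise on all arrays. The sums of the list were 8554 to 9970 in L5, 7077 to 9523 in DL and 5419 to 5793 in OMN. Most of each sum came from Gap43, another gene of the list, so the sums say little about Prrxl1 or Pmp22. Those genes ran opposite ways between L5 and DL. In the excitatory interneuron list 1 of 5, Slc17a6, was called in all 3 pairs, at 456 ± 59.8, 202 ± 73.8 and 1124 ± 136 in L5, DL and OMN, with Slc17a7 under noise on all arrays. Of 11 microglia, 4 oligodendrocyte precursor and 12 vascular and meningeal markers, limma called 0 for L5 minus DL or DL minus OMN, with 3, 0 and 4 at an unadjusted p under 0.05 for L5 minus DL and 4, 0 and 2 for DL minus OMN. Among 11 motor neuron markers, Isl1 (598 ± 134 in L5, 2717 ± 414 in DL and 2129 ± 45.7 in OMN) was lower in L5 than DL, and Mnx1 and Isl2 were higher in DL than in OMN. The summed motor neuron list ran the other way between L5 and DL, at 47022 to 49005 in L5, 35257 to 40380 in DL and 34291 to 36099 in OMN. The summed level of the vascular and meningeal list was 3178 to 4030 in L5, 3936 to 5001 in DL and 3329 to 3642 in OMN. The part of these cells in the Bdnf and Ngfr values was not tested.

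**Figure D4:**
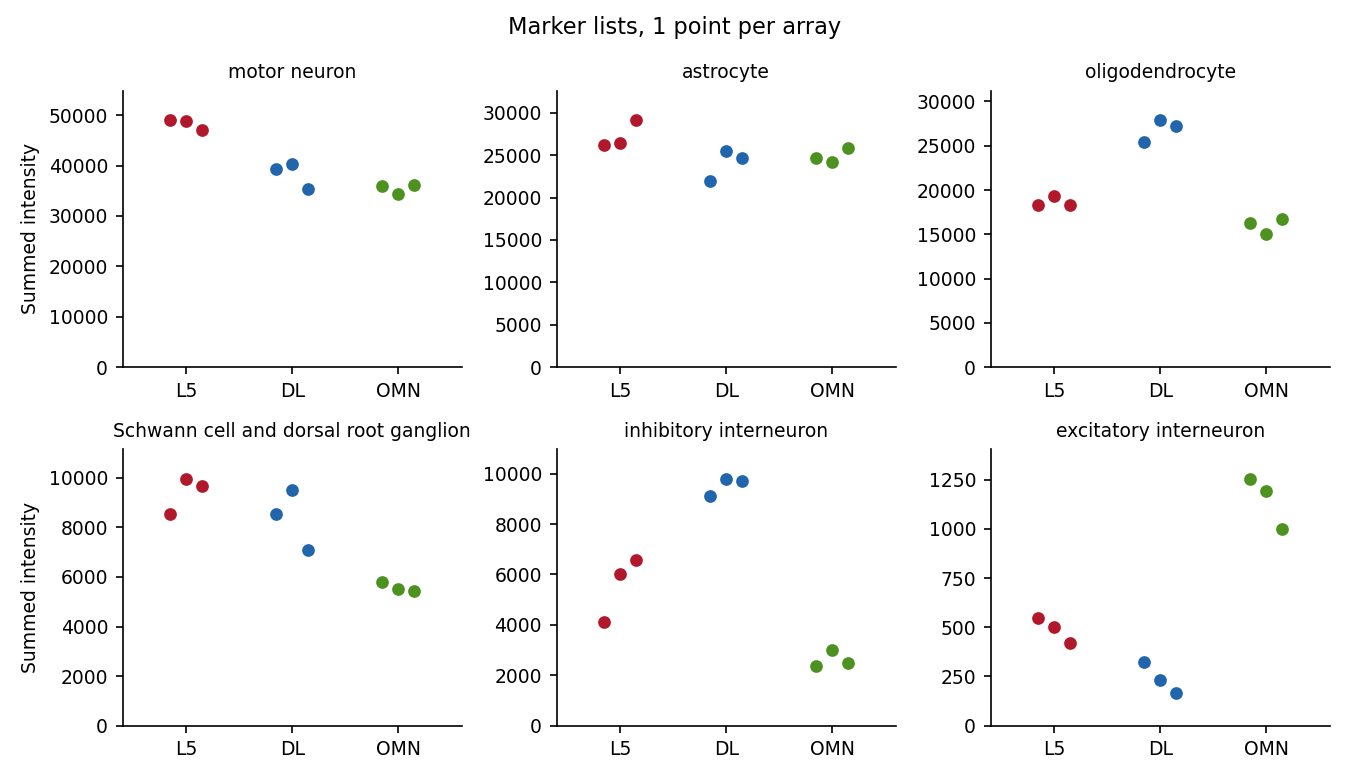
Summed intensity (linear axis from 0) of 6 marker lists on the 3 arrays of L5, DL and OMN. Sums of oligodendrocyte and inhibitory interneuron markers are highest in DL (25471 to 27893 and 9100 to 9802). Those of motor neuron markers are highest in L5 and those of excitatory interneuron markers in OMN. Sums of the list for Schwann cells and sensory neurons, mostly from Gap43, overlap between L5 and DL.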

How the data were processed

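The authors deposited 1 table of intensity values for 45101 probe sets on 9 arrays, on a linear scale. The mean of each array without 2% of its values at each end was 250.0; the software is not given in these sources, and the values were used as deposited. Per the labels' protocols, at least 1.5 ng of RNA from 12 µm sections was amplified and labelled with biotin. After 64 controls were left out, 34945 probe sets named 1 gene in the platform annotation, 932 several and 9160 none. A gene was represented by its brightest probe set. Linear models in limma 3.58.1 (R 4.3.3) with moderated variances compared L5 with DL, L5 with OMN, DL with OMN and L5 with the mean of both, and again over all 45037 probe sets that are not controls. A fit pools the spread of all pools.

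The replicate number in the titles was the block, because per the labels' protocols every animal was the source of all pools, though equal numbers are not stated to be one animal. Deviations of same-numbered arrays from their pool means correlated at -0.05 to 0.04, so the data show no pairing. The code was tested on simulated arrays. Members, lists and tests were chosen with earlier results of these data known. Named genes were the members, up to 3 called genes of each list and comparison with the smallest p, the 3 genes most like each called member (provisional names passed over), Chat, Slc18a3, Isl1 and Prph, and up to 3 called markers of each list. Other genes were named after their values were seen (Ntf5, and markers at noise or beyond the first 3 of a list). The noise level was chosen after the values had been seen. The number of arrays limits the precision.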

Additional observations from a re-analysis of the deposited data

How the results depend on the processing

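The 2 calls for L5 minus DL and the 2 for DL minus OMN were kept with no replicate block, other pseudocounts, quantile normalization, centring on medians, a filter on dim genes, the mean of all probe sets, a trend with robust variances and array weights. With no replicate block no member's call changed, and over all genes the calls were 806 in place of 464 for L5 minus DL and 695 in place of 387 for L5 minus the mean of the others. When only the compared pools were fitted 1 member was called for each, and adding the Gapdh ratio to the model left 1 for DL minus OMN. Without DL arrays 1 and 3, which leaves a single DL array assumed to vary like the others, limma called 0 in each of the 3 comparisons with DL, with 2 members at an unadjusted p under 0.05 in each. Leaving out 1 array gave 1 to 2 members for L5 minus DL and 0 to 1 for L5 minus the mean of the others. The last count was 0 with a pseudocount of 1 and 2 with a pseudocount of 64, centring on medians, the filter and array weights. Some uncalled differences changed sign. For Ntrk2, L5 minus DL was -0.021 with centring on medians, -0.20 with the mean of probe sets and -0.0502 to 0.41 on leaving out 1 array. L5 minus the mean of the others was 0.00012 with the Gapdh ratio and -0.21 to 0.12 on leaving out 1 array. For Sort1, L5 minus OMN was -0.11 with the mean of probe sets and -0.17 to 0.36 on leaving out 1 array, and for Ntrk3 it was -0.38 to 0.0791. The cause of these changes was not tested. Over all genes, calls on leaving out 1 array numbered 55 to 259 for L5 minus DL, 83 to 375 for L5 minus OMN, 186 to 370 for DL minus OMN and 37 to 305 for L5 minus the mean of the others, in place of 464, 394, 550 and 387. In that order they were 61, 103, 200 and 53 with a pseudocount of 1, 814, 602, 720 and 783 with 64. Robust variances fitted with a trend gave 1153, 946, 880 and 1070. Array weights gave 676 for L5 minus OMN. With only the compared pools L5 minus DL had 46 and DL minus OMN 120, with the Gapdh ratio 89 and 279 (and 152 for L5 minus the mean of the others), and without DL arrays 1 and 3 0 (3007 at an unadjusted p under 0.05) and 128 (and 95). Testing every probe set gave 865 for DL minus OMN. Centring on medians moved the median of all genes from 0.06 to -0.10 for L5 minus DL and from -0.04 to 0.18 for DL minus OMN, with 169 higher and 406 lower in place of 232 and 232, and 384 and 195 in place of 249 and 301. Bdnf and Ngfr kept their directions against DL in every setting tried. Dim probe sets near noise limit what can be said of Bdnf in L5 and OMN.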
